A study of Homo sapiens with 32 samples.

Results

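TCam-2 cells grown with denosumab were compared with TCam-2 cells grown with vehicle, across all genes. The 4 denosumab libraries and the 4 vehicle libraries were taken by their titles, 8 of the 32 libraries of the study, and were paired by replicate number, because the labels give both libraries of a number the same passage (118, 120, 121 or 122). TCam-2 is an established line derived from a human seminoma, so each group stands for 1 cell line in culture and not for a tumour. The cells were grown in RPMI medium with fetal bovine serum and treated for 48 h, and the vehicle was D-PBS. The sample titles and the treatment label name denosumab, whereas the protocol text lists RANKL again where a further agent would stand and gives denosumab no dose. What the denosumab libraries received therefore rests on their labels. The 4 TCam-2 libraries given OPG (1 µg/ml), the 4 given RANKL (1 µg/ml) and the denosumab and vehicle libraries of NTera2, a line derived from embryonal carcinoma, served as further comparisons, with 4 libraries a group. The labels describe the replicates as independent experiments.

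Denosumab is a monoclonal antibody against RANKL (TNFSF11), a ligand of the TNF family. RANKL binds the receptor RANK (TNFRSF11A), which recruits TRAF adaptors and activates NF-kB and MAP kinases, the pathway best known for making osteoclasts. OPG (TNFRSF11B) is a secreted decoy receptor that binds RANKL and, unlike denosumab, also the ligand TRAIL. The comparison asks what blocking RANKL does to the mRNA of seminoma-derived cells to which no RANKL was added, and what differs between an antibody and a decoy receptor.

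Polyadenylated RNA was read as counts per gene. The 8 libraries held between 10585247 and 19629055 counts, and the RNA integrity number in their labels was 9.2 to 9.6. Levels are given in CPM, counts scaled to a common library size (TMM over the 16 TCam-2 libraries), as mean ± SD of 4 libraries. Seminoma markers were present in both groups: SOX17, a specifier of human primordial germ cells, was at 158 ± 24.8 CPM with denosumab and 154 ± 25.5 CPM with vehicle, and TFAP2C, its partner in that role, was at 1306 ± 57.1 CPM with denosumab and 1349 ± 88.3 CPM with vehicle. The embryonal carcinoma gene SOX2 was low, at 2.22 CPM with denosumab and 2.39 CPM with vehicle. DNMT3B, a DNA methyltransferase listed beside it, was at 60.1 CPM with denosumab and 59.7 CPM with vehicle. SOX2 does not stand for its list. Of 10 embryonal carcinoma markers listed as absent from seminoma, 9 had enough counts to test. The 10 summed to 237 to 245 CPM with denosumab and 248 to 260 CPM with vehicle, so the 2 ranges did not overlap. Of the 9 tested, 7 had a negative log2 fold change of denosumab over vehicle, and 4 had one without replicate 1. Vehicle replicates 2 and 4 stood apart from the other 6 libraries. They lay at 12.1 and 23.6 on the leading principal component (48.5% of the variance), where the other 6 lay between -11.7 and 2.55. A list whose balance of positive and negative members turned without these 2 libraries is given both ways (4 denosumab against 2 vehicle libraries, no block, a choice made after seeing the data).

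No gene passed the threshold between denosumab and vehicle. Of 16395 genes tested with edgeR (quasi-likelihood test, passage pairs as a block, adjusted p under 0.05), 0 were called, or 0%, and the smallest adjusted p was 0.467. At an unadjusted p under 0.05 there were 1170 genes, 688 higher and 482 lower with denosumab (4.2% and 2.94% of those tested). With the same block DESeq2 called 2, both mitochondrial, and gave 719 genes an unadjusted p below 0.05. Leaving out a replicate number changed the edgeR count: without replicate 4 it was 8, of which 5 were mitochondrially encoded mRNAs, without replicate 1 it was 2 (MT-ND4L and MT-ATP8), and without replicate 2 or 3 it was 0. The median log2 fold change over all genes was 0.00, and 50% of the genes were positive. For 9309 genes the mean level reached 10 CPM. Their log2 fold changes had a standard error (SE) of 0.0989 at the median, and 9305 (99.957%) had a 95% interval that lay wholly within a 2-fold change in either direction. A 2-fold difference therefore lay outside the interval of nearly every gene at that level, and the median interval reached 0.21 to each side on the log2 scale.

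**Figure D1:**
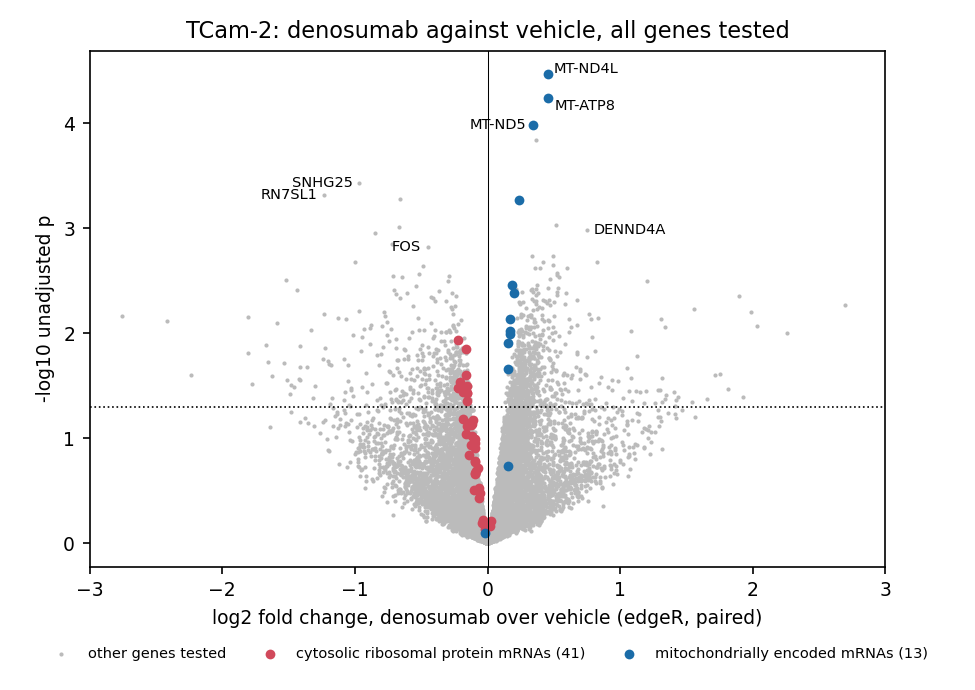
Each point is a gene, with the log2 fold change of denosumab over vehicle on the x axis and -log10 of the unadjusted edgeR p on the y axis; the dotted line marks an unadjusted p of 0.05. The mitochondrially encoded mRNAs (blue) sit to the right of 0 except MT-ND3, with MT-ND4L at 0.46 at the top, and the ribosomal protein mRNAs (red) sit mostly just left of it, between -0.22 and 0.03.

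The genes nearest to the threshold on the higher side came from the mitochondrial genome, which encodes 13 proteins of the respiratory chain. It is transcribed in long precursors from both strands that are then cut into shorter RNAs. The mRNAs of one strand therefore share their promoters. MT-ND4L (ENSG00000212907), a membrane subunit of complex I, was at 807, 719, 829 and 899.8 CPM in denosumab replicates 1 to 4, against 693, 542, 607 and 516 CPM in the vehicle libraries. All 4 denosumab libraries lay above all 4 vehicle libraries, with a log2 fold change of 0.46 (SE 0.0769; adjusted p = 0.467 with edgeR and 0.0126 with DESeq2). MT-ATP8 (ENSG00000228253), a small subunit of ATP synthase, was at 213, 182, 219.7 and 239 CPM with denosumab, against 190.2, 129, 151 and 148 CPM with vehicle. The lowest denosumab library lay below the highest vehicle library, but each denosumab library was above its own partner (log2 fold change 0.46, SE 0.0814, the same 2 adjusted p-values). MT-ND5, a proton-pumping subunit of complex I, was at 1261, 896, 1085 and 1217 CPM with denosumab and at 1099, 698, 897 and 811 CPM with vehicle. It was higher in 4 of 4 pairs (0.34, SE 0.064, edgeR adjusted p = 0.562).

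The 2 genes with the largest log2 fold changes among the 13 are short, and each shares bases with a longer neighbour, which is why their ends are shown here. The values are counts per gene and do not show whether a gene and its neighbour lie on the same RNA molecule. Reads that cover the shared bases belong to both genes, and the labels do not say how the counting assigned them. The capitals mark the shared bases, on GRCh38 from the GENCODE transcripts, at chrMT:8513-8572 and chrMT:8527-8586 for the first pair and at chrMT:10707-10766 and chrMT:10760-10819 for the second, all on the plus strand.
MT-ATP8: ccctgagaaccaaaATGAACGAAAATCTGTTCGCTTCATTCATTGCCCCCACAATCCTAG
MT-ATP6: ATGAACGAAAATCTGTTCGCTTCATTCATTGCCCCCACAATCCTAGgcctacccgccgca
MT-ND4L: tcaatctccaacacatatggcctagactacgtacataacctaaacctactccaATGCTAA
MT-ND4: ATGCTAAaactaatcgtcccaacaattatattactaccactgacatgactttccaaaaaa
The overlap is 46 bases, 22.2% of the 207 bases of MT-ATP8 and 6.75% of the 681 of MT-ATP6, and 7 bases between MT-ND4L and MT-ND4. The longer partners had smaller values: MT-ATP6 was at 984 ± 96.3 CPM with denosumab and 848 ± 100.6 CPM with vehicle (log2 fold change 0.20), and MT-ND4 at 4882 ± 385 CPM with denosumab and 4106 ± 406 CPM with vehicle (0.24, SE 0.0537, edgeR adjusted p = 0.69).

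Over the 13 mitochondrially encoded mRNAs, 12 had a positive log2 fold change and 11 had an unadjusted p under 0.05 on the higher side (4.2% of all genes did). None passed the threshold over all genes, and the list was chosen with earlier results of these data known. Its median was 0.17, against 0.00 over all genes, with a range of -0.02 to 0.46. The median of the list was positive in every passage pair, at 0.08, 0.25, 0.30 and 0.20 in pairs 1 to 4, and 11 of the 13 were higher in 4 of 4 pairs, as were 9.06% of all genes. The exceptions were MT-ND3, a complex I subunit at 169.6 ± 25.9 CPM with denosumab and 170.6 ± 24.3 CPM with vehicle, and MT-ND6, the complex I subunit encoded on the opposite strand, which had a ratio below 0 in pair 3. The members of complex IV (MT-CO1 at 0.18, MT-CO2 at 0.17, MT-CO3 at 0.16) and the complex III subunit MT-CYB (0.17) had values close to one another. With pairs 1 and 3 alone, which leaves out both vehicle libraries that stood apart, the median of the 13 was 0.18 and all 13 were positive; without those 2 vehicle libraries and with no block it was 0.17.

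**Figure D2:**
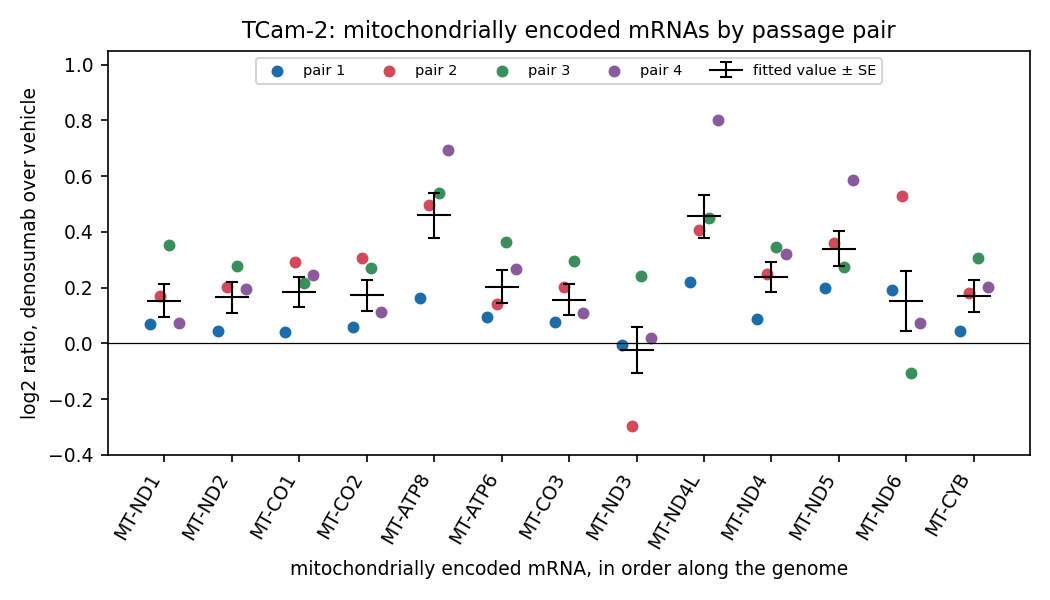
The log2 ratio of denosumab over vehicle in each of the 4 passage pairs (coloured points) and the fitted value ± SE (black) for the 13 mitochondrially encoded mRNAs in genome order. Pair 1 lies lowest for most genes, MT-ND4L reaches 0.80 in pair 4, and MT-ND3 in pair 2 lies at -0.29.

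The 2 mitochondrial ribosomal RNAs, whose transcripts lie upstream of the mRNAs, did not share one direction. MT-RNR2 (16S) had 1194 ± 99.0 CPM with denosumab and 1022 ± 137 CPM with vehicle (log2 fold change 0.22, higher in 4 of 4 pairs). MT-RNR1 (12S) had 101.5 ± 12.1 CPM with denosumab and 121 ± 18.7 CPM with vehicle (-0.26, SE 0.0849, lower in 4 of 4 pairs, edgeR adjusted p = 0.69 for both). These RNAs carry only short adenine tails, and the libraries were made from polyadenylated RNA.

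A nuclear copy stood among the same genes. MTND1P23, a pseudogene on chromosome 1, had 143 ± 11.7 CPM with denosumab and 110.4 ± 15.3 CPM with vehicle, with no overlap between the groups (log2 fold change 0.37, SE 0.0717, edgeR adjusted p = 0.595). Of its 372 bases, 349 were compared with MT-ND1, and 2 of those differ (99.4% identity). Bases at its start were left out of that count, and the copy differs there as well. Reads from the compared part can hardly be told apart from reads of MT-ND1, so the value of the copy is uncertain. The stretch with both differences of the compared part, marked by capitals, lies at chr1:629212-629280 in the copy and at chrMT:4042-4110 in MT-ND1 (GRCh38, plus strands).
MTND1P23: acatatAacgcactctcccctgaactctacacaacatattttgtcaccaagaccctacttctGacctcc
MT-ND1: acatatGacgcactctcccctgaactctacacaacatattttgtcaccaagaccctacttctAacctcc
MT-ND1 itself was at 1698 ± 111 CPM with denosumab and 1518 ± 187 CPM with vehicle (0.15, SE 0.0595).

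As a share of all counts, the 13 mRNAs made up 2.28 ± 0.166% with denosumab and 1.97 ± 0.203% with vehicle. The difference within pairs was 0.0955, 0.3065, 0.426 and 0.4202 percentage points, positive in all 4. An exact two-sided permutation test over the 8 libraries gave p = 0.0571 (0.114 adjusted over the 2 shares tested; the smallest p it can give is 0.0286), and the exact sign-flip test over pairs gave 0.125, the smallest 4 pairs allow. The share with OPG was 1.995 ± 0.181%, and with RANKL it was 2.26 ± 0.233%. The RANKL libraries, at 2.34, 1.91, 2.403 and 2.37%, overlapped the denosumab libraries, and each was above its vehicle partner. RANKL replicates 2 and 4 had an RNA integrity number of 6.1 and 3.7. In bulk RNA, more mitochondrial RNA per cell and a larger number of cells rich in it cannot be told apart.

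**Figure D3:**
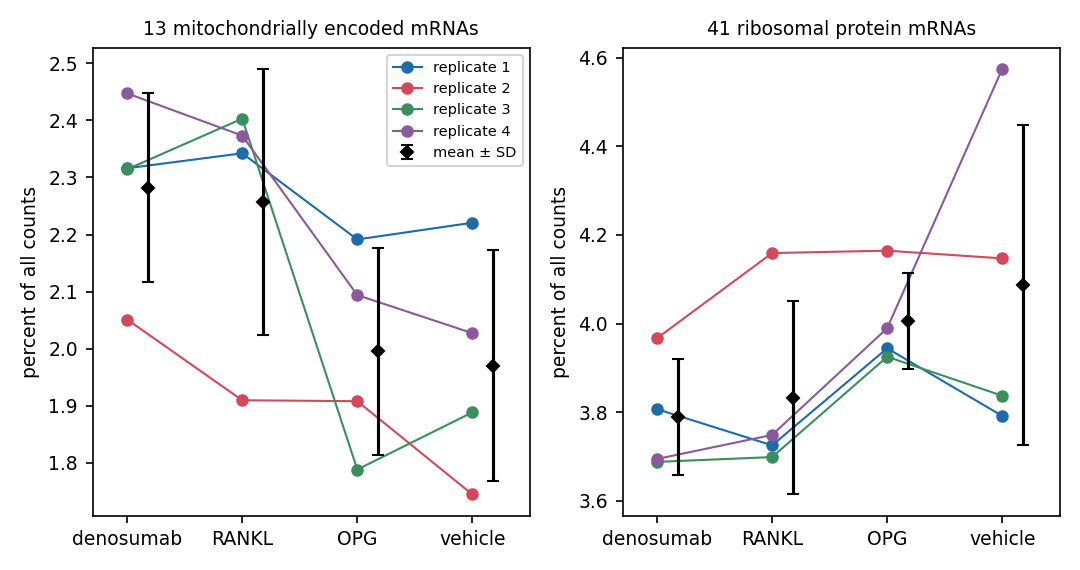
The percent of all counts in each library from the 13 mitochondrially encoded mRNAs (left) and 41 cytosolic ribosomal protein mRNAs (right), with lines joining libraries of one replicate number and black diamonds for the mean ± SD of 4 libraries; the y axes do not start at 0. The mitochondrial share averages 2.28% with denosumab, 2.26% with RANKL and 1.97% with vehicle, and the ribosomal share of vehicle replicate 4 stands above all other libraries.

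The nuclear-encoded mRNAs of the respiratory chain mostly had values of the opposite sign. Of 36 tested, 28 had a negative log2 fold change, 6 with an unadjusted p under 0.05 on the lower side (2.94% of all genes), and the median was -0.08. NDUFA13, a complex I subunit, was at 24.6 ± 1.94 CPM with denosumab and 33.2 ± 9.26 CPM with vehicle (-0.41), and COX4I1, a complex IV subunit, at 259.9 ± 8.91 CPM with denosumab and 301 ± 32.8 CPM with vehicle (-0.22), where the groups of COX4I1 did not overlap. The pair medians were 0.01, -0.00, -0.01 and -0.31, so that pair 4 alone lay far from 0. Without replicate 4, 18 of the 36 were negative, and without vehicle replicates 2 and 4 17 were.

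The ribosomal protein mRNAs showed the same dependence. Of 41 tested, 39 were negative and 12 had an unadjusted p under 0.05 on the lower side (2.94% of all genes), with a median of -0.11. RPS27 was at 740.4 ± 38.8 CPM with denosumab and 860.02 ± 113 CPM with vehicle (-0.22, SE 0.0768). Of the 41, 11 were lower in 4 of 4 pairs, as were 7.5% of all genes. Pair medians were 0.02, -0.06, -0.05 and -0.33. Without replicate 4 the median was -0.05 with 10 of the 41 positive, and with pairs 1 and 3 alone it was -0.03. Their share of all counts was 3.79 ± 0.131% with denosumab and 4.09 ± 0.361% with vehicle (exact permutation p = 0.2), and the difference of -0.299 percentage points became -0.0254 without vehicle replicates 2 and 4. Pseudogenes of ribosomal proteins, which share sequence with these genes, had a median of -0.27 over 299 tested, with pair medians of -0.10, -0.34, -0.05 and -0.52.

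Base composition and length moved with pair 4 as well. Genes of at least 10 CPM were split into 3 bins of near equal size. The bin of lowest GC content had a median log2 fold change of 0.10 (78.5% positive), and the bin of highest GC content had -0.06 (23.9% positive). In pair 4 those medians were 0.34 and -0.24, whereas in pair 1 they were -0.02 and 0.06. By gene length the bin of shortest genes had a median of -0.05 and the bin of longest genes 0.06, again with most of the spread in pair 4 (-0.16 and 0.22). The mitochondrial mRNAs have a GC content of 39.6 to 47.7% (median 44.3%), where the median of the lowest bin is 40.2% and that of the middle bin 48.1%. In pairs 1, 2 and 3 the mitochondrial median (0.08, 0.25 and 0.30) lay above that of the lowest bin (-0.02, 0.07 and 0.07), and in pair 4 it lay below it (0.20 against 0.34). The part of base composition in these results was not tested.

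**Figure D4:**
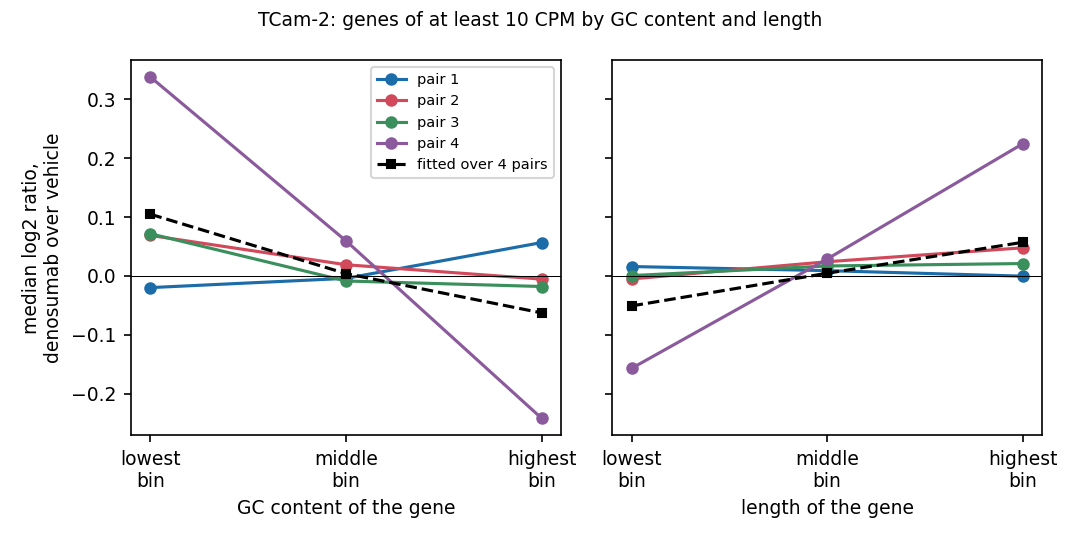
The median log2 ratio of denosumab over vehicle for genes of at least 10 CPM, in 3 bins by GC content (left) and by gene length (right), for each passage pair and for the fit over 4 pairs (dashed). The line of pair 4 is steep, at 0.34 in the lowest GC bin and -0.24 in the highest, while the other pairs stay between -0.02 and 0.07.

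Beyond the mitochondrial genes and the nuclear copy, 3 genes were among the 8 with the smallest p on the higher side, all with an edgeR adjusted p of 0.69. The long noncoding RNA LINC00641 was at 23.9, 24.5, 23.4 and 27.5 CPM with denosumab, against 19.4, 16.05, 18.6 and 14.8 CPM with vehicle, with no overlap (log2 fold change 0.52, SE 0.124). DENND4A, which activates a Rab GTPase, was at 13.001 ± 2.04 CPM with denosumab and 7.91 ± 3.34 CPM with vehicle (0.75, SE 0.182). IPO7, a nuclear import receptor, was at 249 ± 22.3 CPM with denosumab and 196 ± 29.4 CPM with vehicle (0.34, SE 0.0887). Each of them was higher in 4 of 4 pairs.

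The 8 genes with the smallest p on the lower side also had an edgeR adjusted p of 0.69 each, and several are short or noncoding. SNHG25, a host gene of a small nucleolar RNA, was at 9.71, 11.7, 11.4 and 8.28 CPM with denosumab, against 15.8, 38.8, 11.9 and 20.6 CPM with vehicle. All denosumab libraries lay below all vehicle libraries, with vehicle replicate 2 far above the rest (log2 fold change -0.97, SE 0.208). RN7SL1, the RNA of the signal recognition particle, was at 3.28 ± 0.465 CPM with denosumab and 8.45 ± 4.71 CPM with vehicle (-1.23, SE 0.274). The ribosomal protein pseudogenes RPS27AP16 (-0.66), RPL7P9 (-0.66), RPSAP61 (-0.72) and RPS27P3 (-0.49) took 4 of the 8 places. HTRA3, a secreted serine protease, was at 1.596, 1.41, 1.32 and 1.49 CPM with denosumab, against 2.71, 3.61, 2.48 and 2.92 CPM with vehicle, with no overlap (-0.999, SE 0.267). The number of genes whose groups did not overlap was 288 on the higher side and 304 on the lower side, 1.76% and 1.85% of those tested.

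The immediate early gene FOS, a subunit of the AP-1 factor that RANK signalling induces in osteoclast precursors, was at 19.5, 32.3, 21.9 and 11.3 CPM with denosumab, against 25.8, 36.1, 35.6 and 15.7 CPM with vehicle. It was lower in each of the 4 pairs although the levels differed more between passages than between treatments (-0.45, SE 0.115, edgeR adjusted p = 0.69). Of 15 immediate early genes tested, 10 were negative and FOS alone had an unadjusted p under 0.05, with EGR1 at -0.01, JUN at 0.10 and NR4A1 at -0.18. Without vehicle replicates 2 and 4, as without replicate 4, 7 of the 15 were negative.

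The targets of the antibody and their partners were sparse. TNFSF11, the ligand that denosumab binds, had 8 counts over 3 denosumab libraries and 6 counts in 1 vehicle library and was too low to test. TNFRSF11B had 0 counts in both groups, which allows up to 0.0505 CPM over the denosumab libraries and 0.0564 CPM over the vehicle libraries (3 counts over the group, counting error only). The receptor TNFRSF11A was at 1.98, 1.79, 2.63 and 1.87 CPM with denosumab, against 2.57, 0.721, 1.97 and 2.92 CPM with vehicle. The vehicle libraries enclosed the denosumab libraries (log2 fold change 0.05, SE 0.321), and the sign of that value changed under 5 of the alternatives. LGR4, another receptor described for RANKL, was far more abundant, at 50.1 ± 6.51 CPM with denosumab and 42.9 ± 5.34 CPM with vehicle (0.21, SE 0.112, unadjusted p = 0.0795). Among the TRAIL receptors, TNFRSF10A was at 11.6 ± 0.983 CPM with denosumab and 14.2 ± 2.07 CPM with vehicle (-0.29, unadjusted p = 0.0415), and TNFRSF10B, the other death receptor for TRAIL, had a log2 fold change of 0.04.

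Of the 22 adaptors and kinases that act below RANK, 13 were positive and 9 negative, with a median of 0.05. TRAF6, the adaptor that RANK needs in osteoclasts, was at 19.7 CPM with denosumab and 16.1 CPM with vehicle (0.28). TAB3 and TAB2, which bind the kinase TAK1, had 0.30 and 0.22. These 3 of the 22 had an unadjusted p under 0.05 on the higher side (4.2% of all genes). The pair medians of the 22 were 0.01, -0.01, 0.08 and 0.19, and the pair ratios of TAB3 were 0.07, 0.14, 0.22 and 0.83. Without replicate 4 the median of the list was 0.02, with 13 positive and 9 negative. MAP3K14, the kinase of the alternative NF-kB pathway, was at 10.2 ± 1.43 CPM with denosumab and 13.6 ± 2.47 CPM with vehicle (-0.41). Among 18 NF-kB subunits and targets, 7 were positive and 11 negative: the inhibitor NFKBIA, a feedback target of the pathway, had -0.19, and NFKB2 -0.09. That count turned to 13 positive and 5 negative without replicate 4 and to 12 and 6 without vehicle replicates 2 and 4. TNFAIP2 was at 2.94, 3.68, 3.34 and 3.21 CPM with denosumab, against 2.13, 1.98, 1.75 and 2.85 CPM with vehicle (0.58, SE 0.249), with no overlap at a low level. Of the osteoclast genes that RANK switches on, 10 of 16 were tested, 6 positive and 4 negative (4 and 6 with pairs 1 and 3 alone), none with an unadjusted p under 0.05, and NFATC1, the master factor of the osteoclast programme, was at 16.7 CPM with denosumab and 15.4 CPM with vehicle. None of the members named from these 3 lists passed the threshold over all genes (edgeR adjusted p of 0.69 or higher).

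Fc receptors bind the constant part of antibodies such as denosumab. Of 14 genes for Fc receptors, complement and antibody handling, 7 had 0 counts in all TCam-2 libraries compared, among them FCGR1A, FCGR2A and FCGR3A. Of the 6 tested, 4 were positive and 2 negative, against 3 and 3 without vehicle replicates 2 and 4. CD46, a membrane protein that protects cells from complement, was at 232 ± 23.7 CPM with denosumab and 195 ± 21.98 CPM with vehicle (0.23, edgeR unadjusted p = 0.0166, adjusted p = 0.69). It was the 1 member with an unadjusted p under 0.05. Its pair ratios were 0.02, 0.27, 0.09 and 0.62, and denosumab replicate 4 stood above the others.

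Cell identity genes differed little. KIT, the receptor tyrosine kinase of seminoma and germ cells, was at 82.4, 80.02, 93.4 and 88.6 CPM with denosumab, against 79.1, 67.0, 82.9 and 57.9 CPM with vehicle. Each denosumab library was above its partner, with the widest gap in pair 4 (0.26, SE 0.0935, edgeR adjusted p = 0.69). POU5F1, the pluripotency factor OCT4, was at 1754 ± 102 CPM with denosumab and 1921 ± 218 CPM with vehicle (-0.14, SE 0.0754), and NANOG at 509 ± 27.4 CPM with denosumab and 541 ± 33.02 CPM with vehicle (-0.10, SE 0.0608). POU5F1 has transcribed pseudogenes, so its counts may be split. NANOS3, an RNA-binding protein of germ cells, was at 4.56 ± 0.821 CPM with denosumab and 6.31 ± 0.367 CPM with vehicle with no overlap (-0.50, SE 0.186). Of 18 primordial germ cell and seminoma genes 6 were positive and 12 negative, and of 17 pluripotency genes 6 and 11, with medians of -0.06 and -0.04. Without vehicle replicates 2 and 4 the pluripotency genes stood at 9 positive and 8 negative. Later germ cell genes, trophoblast and lineage genes, and cancer-testis genes were mostly below the level that could be tested (5 of 18, 12 of 22 and 3 of 17 tested).

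Of 28 genes of S phase and mitosis, 14 were positive and 14 negative. Without vehicle replicates 2 and 4, 9 were positive and 19 negative, as with pairs 1 and 3 alone. TOP2A, the topoisomerase of dividing cells, was at 368, 350.1, 373 and 397 CPM with denosumab and at 372, 285, 322 and 264 CPM with vehicle (0.26, SE 0.081), and the mitotic kinesin CENPE had 0.35, while E2F1 had -0.19 and MYBL2 -0.15. MKI67, the proliferation marker Ki-67, was at 419.8 ± 11.7 CPM with denosumab and 383 ± 54.0 CPM with vehicle (0.13, SE 0.0737), and with pairs 1 and 3 alone the value was -0.03. Among 18 cyclins, CDKs and inhibitors of G1, none had an unadjusted p under 0.05, and CDKN1A, the p53-induced inhibitor p21, was at 19.1 CPM with denosumab and 20.6 CPM with vehicle. Of 21 p53 targets 10 were positive and 11 negative, against 14 and 7 without vehicle replicates 2 and 4. CCNG1, a cyclin G, was at 114 ± 18.2 CPM with denosumab and 84.9 ± 19.8 CPM with vehicle (0.42, SE 0.112, higher in 4 of 4 pairs, edgeR adjusted p = 0.69), whereas MDM2, a standard readout of p53, had 0.09 and PHLDA3 -0.16. In the BCL2 family, 10 of 13 tested members were negative and none had an unadjusted p under 0.05. The number of negative members was 6 without replicate 4, 5 with pairs 1 and 3 alone and 4 without vehicle replicates 2 and 4.

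Stress and metabolic lists had small medians. Of 24 genes of the integrated stress and unfolded protein response, 18 were negative (median -0.07), with DDIT3 (CHOP) at 35.1 ± 4.11 CPM with denosumab and 43.1 ± 9.00 CPM with vehicle (-0.29, SE 0.0972) and its inducer ATF4 at 450.4 ± 32.2 CPM with denosumab and 505 ± 47.5 CPM with vehicle (-0.18, SE 0.0609). The direction of this list turned with the vehicle libraries that stood apart: 12 of the 24 were negative without replicate 4 (median -0.01) and 10 without vehicle replicates 2 and 4 (median 0.02). Of 25 hypoxia and glycolysis genes, 20 were negative (median -0.06), with the angiogenic factor VEGFA at -0.37 and the glycolytic enzyme TPI1 at -0.13. Of 14 interferon response genes, 11 were negative (median -0.08), and IFITM3, a membrane protein that restricts viral entry, had -0.19. Heat shock genes (7 of 13 positive; HSPH1 at 0.23), cholesterol synthesis genes (12 of 24; HMGCS1 at 0.19) and ERK feedback genes (10 of 16; SPRED1 at 0.25) had medians of 0.02, 0.00 and 0.05; without vehicle replicates 2 and 4, 6 of the 16 ERK feedback genes were positive. For WNT targets (8 of 12 positive) the median was 0.07, with TCF7, a WNT-responsive transcription factor, at -0.28, and the secreted WNT antagonist DKK1 at 1.00 ± 0.453 CPM with denosumab and 0.396 ± 0.297 CPM with vehicle (1.32, SE 0.601). For NODAL and BMP genes (7 of 14) the median was -0.01, with the BMP feedback inhibitor SMAD6 at -0.39. Insulin-like growth factor genes (7 of 12), epithelial and matrix genes (12 of 25) and replication-dependent histones (6 of 10) had medians of 0.01, -0.01 and 0.09, and the keratin KRT19 had -0.19 and the integrin ITGA6 0.22. Without vehicle replicates 2 and 4, 8 NODAL and BMP genes, 6 insulin-like growth factor genes and 14 epithelial and matrix genes were positive. No member of these lists passed the threshold.

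Of the markers of other cells, the summed levels of immune and of Sertoli, Leydig and endothelial markers overlapped between the groups, and that of fibroblast markers did not. The summed level of 12 immune markers was 1.72 to 3.51 CPM with denosumab and 1.76 to 2.31 CPM with vehicle, with 3 of the 12 at 0, the leukocyte antigen PTPRC among them. For 13 Sertoli, Leydig and endothelial markers the sum was 24.6 to 27.3 CPM with denosumab and 21.9 to 28.2 CPM with vehicle. The sum of 12 fibroblast markers was 257 to 286 CPM with denosumab and 289 to 319 CPM with vehicle, lower in all 4 denosumab libraries than in any vehicle library, and its part in the other results was not tested. Most of that sum was COL1A2 at 244 ± 11.5 CPM with denosumab and 266 ± 10.2 CPM with vehicle (-0.14, no overlap), while FAP, a defining fibroblast gene, had 0 counts in both groups, and DCN had 0 counts with denosumab and 1 with vehicle.

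**Figure D5:**
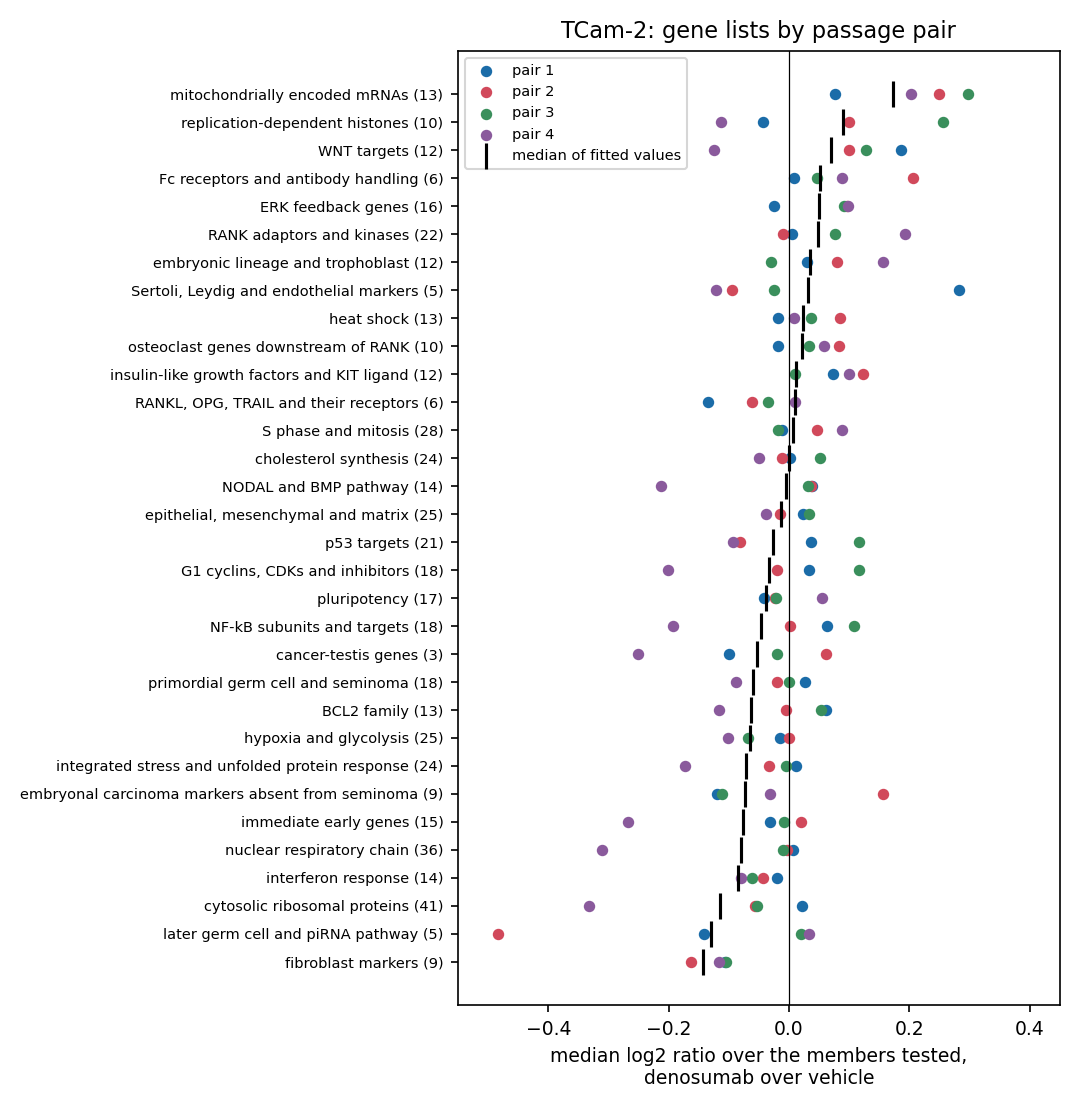
The median log2 ratio of denosumab over vehicle over the tested members of each gene list (number tested in brackets), for each passage pair (coloured points) and for the fitted values (black bars); lists with fewer than 3 tested members are left out. The mitochondrially encoded mRNAs have the highest fitted median, 0.17, with all 4 pairs above 0, and the nuclear respiratory chain and ribosomal protein lists have pair 4 far to the left of the others.

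Set against OPG, the other RANKL blocker, 1 gene passed the threshold. Of 16463 genes tested, edgeR called 1 (0.00607%), and 1621 genes had an unadjusted edgeR p under 0.05. DESeq2 called 116, but it gave 14682 of the 16463 genes no adjusted p. In the comparison with vehicle 0 genes lacked one, so the 2 DESeq2 counts rest on unlike sets. The gene that edgeR called was KRT18 (ENSG00000111057), a keratin of simple epithelia. It was at 2573, 3484, 3272 and 3226 CPM with denosumab, against 2973, 4295, 3979 and 3945 CPM with OPG. It fell in each of the 4 pairs (log2 fold change -0.28, SE 0.0306, edgeR adjusted p = 0.00396). KRT18 has many near-identical pseudogenes, so its value is uncertain, and it was no longer called without the block, without replicate 3, without replicate 4 or with all 16 TCam-2 libraries in the fit. The next genes, not past the threshold, were RPS18 (-0.24), IFITM3 (-0.40, at 125 ± 7.19 CPM with denosumab and 164 ± 12.03 CPM with OPG) and the alanyl-tRNA synthetase AARS1 (-0.26) on the lower side. On the higher side they were MT-ND5 (0.26, adjusted p = 0.0571), MT-ND4L (0.29, adjusted p = 0.0626), the reticulon RTN4 (0.28) and the purine synthesis enzyme ADSS2 (0.27).

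Against OPG, all 13 mitochondrially encoded mRNAs had a positive log2 fold change, between 0.11 and 0.29 with a median of 0.16. This comparison uses the same denosumab libraries as that with vehicle, so the values are given side by side and not as a second observation. OPG against vehicle, in a fit of its own, gave 0 called genes with edgeR (942 at an unadjusted p under 0.05) and a median of 0.02 for the 13. DESeq2 was not run for that fit.

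In NTera2 cells the same antibody label went with the same direction of the mitochondrial mRNAs, in libraries that share no sample with TCam-2. With the same test and the passage block, denosumab against vehicle in NTera2 gave 266 called genes, 23 higher and 243 lower (1.54% of those tested). Of the 13 mitochondrially encoded mRNAs, 12 were among the 23 that rose (0.133% of all genes tested rose), with log2 fold changes over the 13 of 0.16 to 0.30 and a median of 0.25, and MT-ND6 was the member not called. The difference between the lines was tested as an interaction of line and treatment over 16 libraries. For the 13 mRNAs it lay between -0.20 and 0.26, 5 positive and 8 negative, with edgeR adjusted p from 0.757 upward. The lines were therefore not shown to differ in these genes, which does not show that they respond alike.

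Across all 19013 genes of that interaction, edgeR called 0 (0%), the smallest adjusted p was 0.205, and 1219 genes had an unadjusted p under 0.05. DESeq2 called 4. MT-RNR1 had the smallest p, with an interaction of -0.54 (SE 0.0985): it was at 109 ± 13.9 CPM with denosumab and 126 ± 19.2 CPM with vehicle in TCam-2, and at 302 ± 21.2 CPM with denosumab and 244 ± 16.5 CPM with vehicle in NTera2, scaled over these 16 libraries. FASN, the fatty acid synthase, was at 1682 ± 157 CPM with denosumab and 1492 ± 103 CPM with vehicle in TCam-2. In NTera2 it was at 1072 ± 175 CPM with denosumab and 1439.5 ± 173 CPM with vehicle (interaction 0.57, SE 0.102). The cytoskeletal linker PLEC (0.56) and FAM83H (0.45) were also among the genes with the smallest p on the higher side. RPS27AP16 (-1.04), HTRA3 (-1.2997) and the gastrin receptor CCKBR followed on the lower side, the last of them near 0 in TCam-2, with 0.0516 CPM with denosumab and 0.593 CPM with vehicle. Without replicate 4 of both lines the edgeR count of the interaction was 18, and 17 of the 18 were positive.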

How the data were processed

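Per the labels' protocols, poly(A) RNA was made into stranded libraries and read as 52-bp pairs. The tools were bcl2fastq 2.20.0, STAR 2.7.9a and featureCounts 1.6.2 with GRCh38/hg38, per the submitters' processing notes. The authors deposited raw read counts per gene for 61541 genes (0 count columns without a sample, 0 blank rows), with gene length and coordinates as other columns per the file headers. The annotation release and strand setting are not given in the sources used here, so antisense, overlapping and near-identical genes are uncertain.

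Genes were matched by identifier to a gene name table (61369 matched). Counts were filtered with filterByExpr, scaled by TMM and tested with edgeR 4.0.16 in R 4.3.3 (robust quasi-likelihood F test, Benjamini-Hochberg adjustment, threshold 0.05), on the 8 libraries with the passage pair as a block; DESeq2 1.42.0 was an alternative. The SE is the size of the log2 fold change divided by the square root of F. Pair ratios use log2 CPM with a prior count of 2. The pairing comes from the passage labels. Deviations of same-numbered libraries correlated at 0.18, 0.22, 0.41 and -0.32. Those of libraries with different numbers ran from -0.46 to 0.47, highest for denosumab replicate 2 with vehicle replicate 4. The pairing therefore rests on the labels and not on the counts. Replicates differed from one another beyond sampling noise. The test was tried on simulated counts with a fixed spread and no differences between passages. That trial therefore does not cover libraries that stand apart, as vehicle replicates 2 and 4 did.

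Gene lists (33) and comparisons were chosen with earlier results of these data known. Named were the RANKL axis and identity genes, the 8 genes with the smallest p in each direction at 1 CPM or more, the 2 members with the smallest p in each list, and the 4 genes with the smallest p in each direction for OPG and the interaction; other members were named after their values were seen, for their known role. Some genes that the rule names are not reported here.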

Additional observations from a re-analysis of the deposited data

Results flagged for a closer look

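Each group of 4 libraries was checked for a library far from the other 3. The 168 such groups covered the named genes and the mitochondrial and ribosomal shares of counts, the shares also with OPG. In all 7 were found, where chance alone flags about 1 in 20, or 8.4. CD46 was at 266.8 CPM in denosumab replicate 4, above 215 to 224 CPM in the other 3. DDIT3 was at 29.1 CPM in denosumab replicate 1, below 36.3 to 37.8 CPM. NR4A1 was at 30.6 CPM in denosumab replicate 2, above 26.9 to 27.6 CPM. IGF2R was at 215.6 CPM in denosumab replicate 2, below 238 to 242 CPM. COL1A2 was at 226 CPM in denosumab replicate 4, below 249 to 251 CPM. In vehicle, GDF3 was at 8.11 CPM in replicate 2, below 13.8 to 14.9 CPM, and HMGCS1 was at 134 CPM in replicate 1, above 96.8 to 101.3 CPM.

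In libraries outside the main tests, TNFRSF11B had 6 counts over 3 of the 4 TCam-2 libraries given RANKL, against 0 in the denosumab, OPG and vehicle libraries. RANKL replicates 1, 2 and 4 had 2, 3 and 1 counts, and replicates 2 and 4 had an RNA integrity number of 6.1 and 3.7.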

How the results depend on the processing

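For denosumab against vehicle, 0 genes were called in the paired fit. The count was also 0 with no replicate block (1032 at an unadjusted p under 0.05), with relative log expression size factors, with the 14 libraries of RIN 7 or higher, and with all 16 TCam-2 libraries and no block. It was 2 with DESeq2, 2 with all 16 libraries and the block (MT-ND5 and MT-ND4L), 49 with no filter on low counts, and 27 with pairs 1 and 3 alone, an alternative chosen after seeing the data. Without vehicle replicates 2 and 4 and with no block, also chosen after seeing the data, it was 0. Leaving out each replicate gave 0 to 8 called genes, 8 without replicate 4, among them MT-ND4L, MT-ND5, MT-ATP8 and MT-ND4, and 2 without replicate 1 (MT-ND4L and MT-ATP8).

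Against OPG the count of 1 was 0 with no replicate block, 0 with all 16 libraries with or without the block, and 0 with the 14 libraries. It was 116 with DESeq2, which gave 14682 of the 16463 genes no adjusted p. With no filter it was 194, and it was 0 to 2 when a replicate was left out. The interaction count of 0 was 0 with no replicate block, 4 with DESeq2, 74 with no filter, and 0 to 18 when a replicate was left out. The cause of these shifts was not tested. The mitochondrial share difference kept its sign (0.274 to 0.384 percentage points without one replicate, 0.228 without vehicle replicates 2 and 4), as did the ribosomal one (-0.403 to -0.105, and -0.0254).

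Of 81 named genes, 14 changed sign in at least one alternative, none of them called. TNFRSF11A had -0.0056 with no block, -0.00359 with all 16 libraries and no block, -0.21 to 0.31 when a replicate was left out (below 0 without replicate 2 and without replicate 3) and -0.12 without vehicle replicates 2 and 4. SOX17 had -0.053 to 0.18 when a replicate was left out (below 0 without replicate 1 and without replicate 3). With pairs 1 and 3 alone, MKI67 had -0.035, BAD 0.12, TEX14 0.019, XAGE2 0.013, BMP4 0.070, IGF2R -0.028 and THY1 0.015. Without vehicle replicates 2 and 4, MKI67 had -0.021, OSTM1 -0.019, JDP2 0.023, BAD 0.096, KRT7 0.12, XAGE2 0.041, BMP4 0.015, IGF2R -0.067, ITGA6 -0.017 and DNMT3L 0.038. Depth limits TNFSF11 and TNFRSF11B, which had too few counts to test.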
